A study of Mus musculus with 12 samples.

Results

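The mitogen-activated protein kinase kinase kinase kinase (MAP4K) genes, the SH3RF scaffold genes and the kinases of the JNK cascade were followed in RNA-seq libraries of mouse NIH3T3 fibroblasts. The set holds 10 genes of the 54447 features in the count table: 4 MAP4K genes (Map4k2, Map4k3, Map4k4 and Map4k5), 2 SH3RF genes (Sh3rf1 and Sh3rf3), 2 MAP2K genes (Map2k4 and Map2k7) and 2 JNK genes (Mapk8 and Mapk9). Map4k3 and Sh3rf1 were selected on their measured counts with against without doxycycline (dox) in these libraries, and the other 8 were added by name as their paralogs and as the kinases of the same cascade. The values of Map4k3 and Sh3rf1 with against without dox, and between the populations with dox, are therefore descriptions and carry no test. They were tested between the label suffixes, which are balanced over the groups and were not used in the choice. They were also tested between the populations without dox. Those libraries were part of the choice, so that test is not independent of it. All 10 genes were among the 13608 that passed the filter on low counts.

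MAP4K proteins are serine/threonine kinases of the STE20 family that relay stress and cytokine signals to MAP3K kinases. These phosphorylate the MAP2K kinases MKK4 (Map2k4) and MKK7 (Map2k7), which in turn phosphorylate the JNK kinases on threonine and tyrosine. SH3RF1, also called POSH, is a RING-domain ubiquitin ligase and scaffold that holds Rac, MAP3K and MAP2K proteins together, and SH3RF3 is a related scaffold. MAP4K proteins are also known to act on the Hippo kinases LATS1 and LATS2, and MAP4K3 on the amino acid sensing branch of mTORC1.

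Cells were stably infected with a lentiviral Tet-on vector, selected with puromycin, and used as populations rather than as clones. The vector carried a His-tagged N-VEGF, the N-terminal part of the long VEGF-A isoform, either alone (N-VEGF cells) or fused to the nuclear localization sequence of Cas9 (NLS-N-VEGF cells). Each population was grown without or with dox, which gave 4 groups of 3 libraries. All 4 groups carry the vector, and none of the 12 libraries analysed here came from dox-treated cells without an N-VEGF insert, so the effect of dox itself and that of the insert cannot be told apart. In every group the labels gave a library 1 and a library 2 with a first numeric suffix, here called suffix a, and a further library 2 with another, here called suffix b. The labels do not say what the suffix stands for, nor that the libraries came from separate cultures, so p-values measure only the spread between these samples, which may be technical. Where 3 values are given for a group below, they follow this order.

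Total counts per library lay between 13549331 and 18982127, and between 19976 and 22889 genes were detected. The lowest number of genes was in library 1 of N-VEGF cells without dox, and the values it moves most are given with and without it. All 10 fibroblast markers reached at least 1 count per 1000000 counts of a library (CPM) in every library, with a summed level of 11400 to 14300 CPM. The summed levels were 2.93 to 5.01 CPM for 6 endothelial markers, with Cdh5 at 1.84 to 3.46 CPM. They were 0.924 to 1.87 CPM for 6 epithelial markers, with Cdh1 at 0.49 to 1.71 CPM. For 6 macrophage and leukocyte markers they were 8.24 to 13.5 CPM. Of these, Csf1r lay at 4.64 to 10.06 CPM, Cd68 at 2.44 to 5.39 CPM and Tyrobp at 0 in every library. The row of the construct insert lay at 0.29 to 0.86 CPM in the 6 libraries without dox. With dox it was 2.57, 2.58 and 10.24 CPM in NLS-N-VEGF cells and 7.56, 8.08 and 17.95 CPM in N-VEGF cells.

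The promoter sequences of 4 kinase genes are shown because they set the MAP4K gene that differed with dox (Map4k3) beside its paralog Map4k5, and the JNK gene that differed with the suffix (Mapk9) beside Mapk8. Sequences are from RefSeq on GRCm38.p6, where 8 of the 10 genes matched an entry (Sh3rf1 and Map4k4 had none). They are written 5′ to 3′ on the strand of the gene, without the bases that lie in an annotated exon of the gene, and capitals mark CG dinucleotides. The positions are chr17:80728094-80728275 (minus strand) for Map4k3, chr12:69893201-69893413 (minus strand) for Map4k5, chr14:33447159-33447408 (minus strand) for Mapk8 and chr11:49846501-49846750 (plus strand) for Mapk9.
Map4k3: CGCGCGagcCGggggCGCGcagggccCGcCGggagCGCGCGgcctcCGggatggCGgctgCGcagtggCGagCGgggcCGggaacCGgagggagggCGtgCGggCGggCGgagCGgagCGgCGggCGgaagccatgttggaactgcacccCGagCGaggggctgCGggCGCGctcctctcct
Map4k5: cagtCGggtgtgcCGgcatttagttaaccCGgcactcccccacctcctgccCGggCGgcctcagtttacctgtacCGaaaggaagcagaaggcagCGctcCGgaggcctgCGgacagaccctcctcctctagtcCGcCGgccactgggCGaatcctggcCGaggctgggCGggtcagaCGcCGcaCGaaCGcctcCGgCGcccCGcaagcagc
Mapk8: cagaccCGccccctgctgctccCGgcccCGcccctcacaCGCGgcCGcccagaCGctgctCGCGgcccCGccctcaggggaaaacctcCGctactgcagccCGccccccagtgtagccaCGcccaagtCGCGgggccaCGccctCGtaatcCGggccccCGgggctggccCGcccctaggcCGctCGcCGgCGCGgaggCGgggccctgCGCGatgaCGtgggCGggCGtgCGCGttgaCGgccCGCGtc
Mapk9: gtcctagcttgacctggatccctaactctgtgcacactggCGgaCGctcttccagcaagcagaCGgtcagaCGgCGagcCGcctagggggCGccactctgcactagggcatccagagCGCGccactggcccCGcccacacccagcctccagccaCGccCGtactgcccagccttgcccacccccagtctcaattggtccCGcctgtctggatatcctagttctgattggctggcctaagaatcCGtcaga

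In the full 250 bases before each start, Map4k3 held 45 CG dinucleotides, more than 99.6% of the 32851 promoters in the table, whose median was 6. Map4k5 held 26, Mapk8 held 36 and Mapk9 held 14. The table has a second Mapk8 entry, chr14:33411025-33411274, which starts inside the gene and held 1. The window shown is the one at the annotated start of the gene. Searched on both strands, ACGTG, a form of the hypoxia response core that 16.6% of all promoters hold, occurred 1 time in the Mapk8 window shown and not at the other 3. The form GCGTG was not counted. Read on either strand, it is present in the Map4k3, Mapk8 and Mapk9 sequences shown. The AP-1 motif TGANTCA, held by 6.75% of promoters, occurred at none of the 4, and CCAAT, held by 33.8%, occurred 2 times at Mapk9 only among the 4. These letters describe the windows and say nothing of binding.

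Levels between genes were compared as CPM per 1000 bases of exon (the union of a gene's annotated exons). Map4k4, which encodes the kinase HGK, had the highest median over the 12 libraries at 29.0, with a range of 27.1 to 31.4 that no other member reached. Map2k4 (median 16.5), Mapk9 (15.8) and Map2k7 (14.5) followed, and their ranges overlapped. Map4k5 lay at 10.1, and Map4k3 (6.05) and Map4k2 (6.04) could not be separated by their ranges. Mapk8 lay at 4.24, and the scaffolds Sh3rf3 (3.20) and Sh3rf1 (3.05) were lowest, with ranges that overlapped each other and that of Mapk8. With the length of the longest transcript in place of the exon union, Map4k4 stayed highest at 48.1 and the scaffolds lowest at 4.08 (Sh3rf3) and 4.14 (Sh3rf1). The order between them was less stable. Map4k3 (14.2) and Mapk8 (8.43) were then above Map4k2 (7.91), Mapk9 (22.9) above Map2k4 (20.8), and Map4k5 (19.3) above Map2k7 (15.7).

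Map4k3 was higher with dox in both populations, by 1.61-fold in NLS-N-VEGF cells and 1.73-fold in N-VEGF cells, while the other MAP4K genes were not called. MAP4K3, also called GLK, is the kinase linked to amino acid sensing. On chromosome 17 (80580512 to 80728093, minus strand, as deposited with the counts on GRCm38), Map4k3 had 46.81, 45.39 and 43.69 normalised CPM in untreated NLS-N-VEGF cells and 74.24, 75.15 and 69.92 with dox. The N-VEGF population had 39.97, 50.09 and 45.69 CPM without dox and 80.49, 79.03 and 74.73 with dox. All 6 libraries with dox lay above all 6 without it, which is the difference the gene was chosen for. In bulk RNA, a change in more cells and a larger change per cell cannot be told apart. On the log2 scale these changes were 0.69 (SE 0.09, n = 3 against 3) with the localization sequence and 0.79 (SE 0.09) without it. Between libraries of the same label the fold was 1.59, 1.66 and 1.60 in NLS-N-VEGF cells and 2.01, 1.58 and 1.64 in N-VEGF cells. Among the 12058 genes whose mean reached 1 CPM, it ranked 40 from the top of the dox effects in NLS-N-VEGF cells and 17 in N-VEGF cells.

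Sh3rf1, the POSH scaffold (chromosome 8, 61223872 to 61396071, plus strand), showed the same pattern at a lower level. It had 18.46, 18.73 and 17.28 CPM in untreated NLS-N-VEGF cells and 34.87, 35.41 and 24.81 with dox. The N-VEGF population had 20.55, 18.98 and 14.69 CPM without dox and 40.93, 42.20 and 29.60 with dox. The libraries with dox again lay above all those without, and within each group the library with suffix b was the lowest. On the log2 scale the change was 0.80 (SE 0.17) with the localization sequence and 1.06 (SE 0.17) without it. The fold between libraries of the same label was 1.89, 1.89 and 1.44 in NLS-N-VEGF cells and 1.99, 2.22 and 2.02 in N-VEGF cells. The construct insert, in contrast, was highest in the dox-treated libraries with suffix b. Whether the insert level has a part in these values was not tested.

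**Figure D1:**
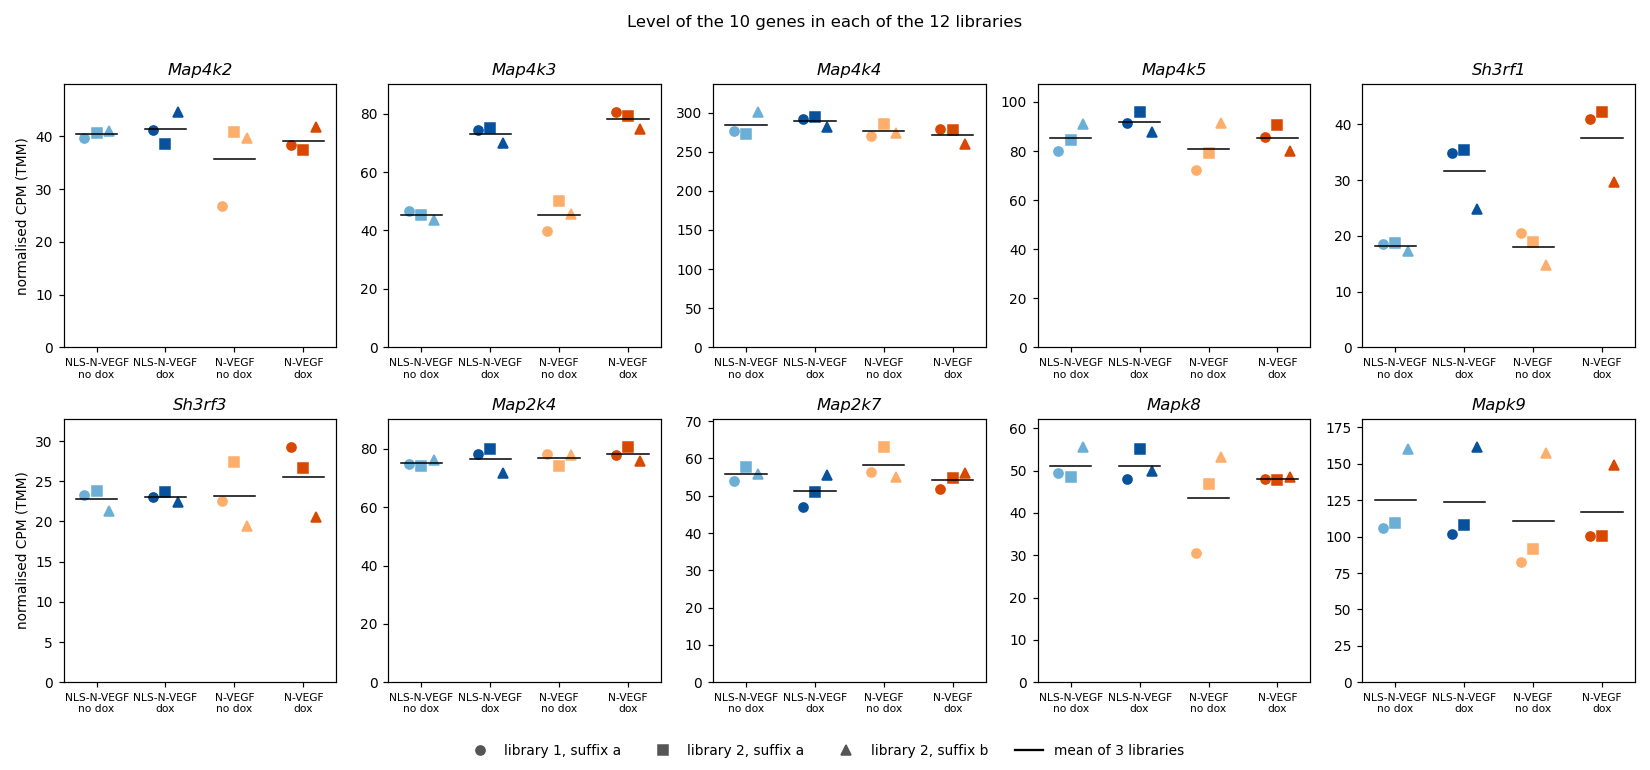
Normalised CPM (vertical axis, from 0) of each of the 10 genes in the 4 groups (horizontal axis), with 1 point per library, its shape showing the library number and suffix, and a line at the mean of 3 libraries. Only Map4k3 and Sh3rf1, the genes chosen for this difference, have all 6 libraries with dox above all 6 without, and Mapk9 has its 4 libraries with suffix b at 149.13 to 161.5 CPM, above the rest. The share of all genes with such a separation, by dox or by suffix, was not counted.

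The other 8 genes had no call with dox. In NLS-N-VEGF cells their log2 fold changes lay between -0.13 and 0.11 with a median of 0.02, against 0 for all genes, and in N-VEGF cells between -0.10 and 0.15 with a median of 0.08, against 0. By edgeR's quasi-likelihood test with Benjamini-Hochberg adjustment, 0 of 8 were called in either population, every adjusted p was 1, and 0 had an unadjusted p under 0.05. DESeq2 also called 0 of 8. The background was low, since 0.022% of all 13608 genes were called in NLS-N-VEGF cells and 0.0367% in N-VEGF cells. With the replicate label as a block these shares were 0.125% and 0.11%, and 0 of 8 were called, with lowest adjusted p-values of 0.779 and 0.891. Over both populations the mean dox effect of the 8 lay between -0.11 and 0.09, with 0 called, where 0.0588% of all genes were called, or 0.566% with the block. The lowest adjusted p with the block was 0.526, for Map2k7 (log2 -0.11, unadjusted p = 0.047 from edgeR).

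The 95% intervals show how large a change the libraries would allow, given first from the model without the replicate block. For Map4k4, the interval of the log2 dox effect ran from -0.13 to 0.19 in NLS-N-VEGF cells and from -0.18 to 0.13 in N-VEGF cells. For Map4k5, which encodes a kinase also called KHS, it ran from -0.11 to 0.32 and from -0.13 to 0.29. Map4k2 encodes germinal center kinase, and its interval ran from -0.26 to 0.33 and from -0.17 to 0.42. Sh3rf3 had intervals of -0.30 to 0.33 and -0.17 to 0.45. Mapk9 had the widest intervals in this model, -0.60 to 0.57 and -0.51 to 0.66, and its libraries differed by suffix within every group. With the replicate block its intervals narrowed to -0.18 to 0.14 and -0.05 to 0.27, while those of Mapk8 were -0.25 to 0.24 and -0.09 to 0.41. The block gave -0.12 to 0.18 and -0.17 to 0.13 for Map4k4, and -0.07 to 0.29 and -0.10 to 0.26 for Map4k5. It gave -0.19 to 0.26 and -0.09 to 0.36 for Map4k2, and -0.20 to 0.24 and -0.07 to 0.36 for Sh3rf3.

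**Figure D2:**
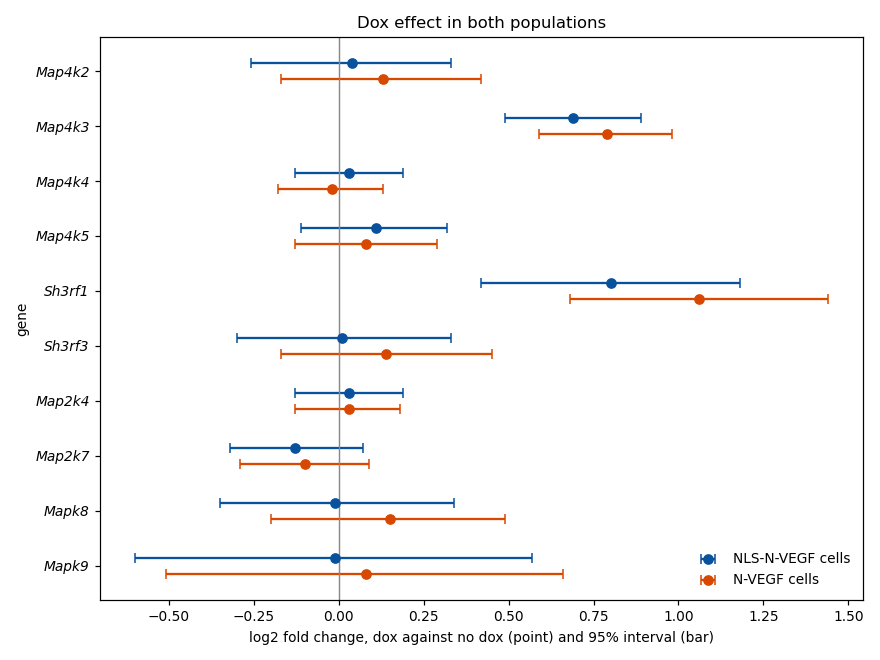
Log2 fold change of dox against no dox (horizontal axis) for each gene (vertical axis) in NLS-N-VEGF cells and N-VEGF cells, with points for the estimate and bars for the 95% interval from the edgeR model without the replicate block. The intervals of the 8 tested genes all include 0, and the values of Map4k3 and Sh3rf1, shown as a description, lie between 0.69 and 1.06.

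The MAP4K paralogs of Map4k3 overlapped between the groups with and without dox. Map4k4 had 276.84, 273.34 and 300.64 CPM in untreated NLS-N-VEGF cells, 292.03, 294.87 and 281.68 with dox, then 270.36, 285.07 and 273.92 in N-VEGF cells without dox and 278.89, 277.40 and 259.89 with dox. Map4k5 had group means of 85.2 ± 5.48, 91.7 ± 4.03, 80.9 ± 9.67 and 85.5 ± 5.38 CPM (SD, n = 3) in the same order of groups. Map4k2 had 40.5 ± 0.741, 41.5 ± 3.01, 35.8 ± 7.77 and 39.1 ± 2.30 CPM. The groups with and without dox overlapped for all 3 genes in both populations. Of the Map4k5 exon bases, 8.63% lie opposite exons of other genes, among them Atl1, and without a stated strand setting the reads of both cannot be told apart.

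Among the summed per-length levels of the 4 MAP4K genes, Map4k3 took 8.39% to 10.1% in the 6 libraries without dox and 13.2% to 15.3% in the 6 with dox. Map4k4 took the largest share in every library, 57.4% to 63.2% without dox and 54.0% to 55.7% with dox. Sh3rf1 lay below Sh3rf3 per length in every library without dox, at a ratio of 0.675 to 0.888, and above it in every library with dox, at 1.08 to 1.55. Both shifts carry the change of Map4k3 and Sh3rf1 that chose them, and no test was made.

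Sh3rf3 had 23.29, 23.83 and 21.35 CPM in untreated NLS-N-VEGF cells and 23.09, 23.63 and 22.44 with dox. The N-VEGF population had 22.56, 27.42 and 19.41 CPM without dox and 29.25, 26.63 and 20.56 with dox. The groups overlapped in both populations, and within each group the library with suffix b was the lowest.

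Map2k4 varied least of the 10 genes and stayed between 71.75 and 80.61 CPM over the 12 libraries. Map2k7 had 55.8 ± 1.91 and 51.2 ± 4.39 CPM (SD, n = 3) in NLS-N-VEGF cells without and with dox and 58.2 ± 4.25 and 54.2 ± 2.19 CPM in N-VEGF cells. Its groups overlapped, while Gm49320 covers 35.2% of the exon bases, a gene annotated on the same strand that had 0 counts in every library, so its counts are uncertain.

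Mapk8 (JNK1) had 49.46, 48.59 and 55.54 CPM in untreated NLS-N-VEGF cells and 47.94, 55.13 and 49.97 with dox. The N-VEGF population had 30.48, 46.82 and 53.15 CPM without dox and 48.05, 47.79 and 48.48 with dox. The first value, from the library with the fewest detected genes, was the lowest of all 12, and the same library was lowest for Map4k2, Map4k3, Map4k5 and Mapk9. Without it, the log2 dox effect in N-VEGF cells went from 0.15 to -0.06 for Mapk8, from 0.13 to -0.04 for Map4k2 and from 0.08 to -0.09 for Mapk9, with edgeR adjusted p-values of 1. For Map4k3 the described value went from 0.79 to 0.71, and for Sh3rf1 from 1.06 to 1.16.

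No tested gene of the set was called between the NLS-N-VEGF and N-VEGF populations. Without dox, the log2 difference of NLS-N-VEGF against N-VEGF cells lay between -0.06 and 0.23 for all 10. For Map4k3 and Sh3rf1 this comparison uses libraries that were part of their choice. By edgeR 0 of 10 were called, 0 had an unadjusted p under 0.05, DESeq2 called 0, and 0% of all genes were called. Without library 1 of untreated N-VEGF cells the range was -0.08 to 0.11, with 0 called, and Mapk8 went from 0.23 to 0.03, Map4k2 from 0.18 to 0.01 and Mapk9 from 0.18 to 0.01. Map4k3 differed by 0.00 (95% interval -0.19 to 0.20) and Sh3rf1 by 0.01 (-0.38 to 0.39). With the block, Mapk8 (0.25, unadjusted p = 0.0498) and Mapk9 (0.21, unadjusted p = 0.014) had edgeR adjusted p-values of 0.939, and 0 of 10 were called. With dox the 8 tested genes lay between -0.15 and 0.10, with 0 called by edgeR or DESeq2, 0 at an unadjusted p under 0.05, and 0% of all genes called, or 0.0147% with the block. The difference of the dox effects lay between -0.15 and 0.05 for the 8 genes, with 0 called by edgeR or DESeq2, 0 at an unadjusted p under 0.05, and 0% of all genes called. Without the same library the range was -0.11 to 0.10, and Mapk8 went from -0.15 to 0.05. As a description, the difference of the dox effects was -0.10 (SE 0.13) for Map4k3 and -0.26 (SE 0.25) for Sh3rf1. With the block its 95% interval for Sh3rf1 was -0.54 to 0.02. Between the populations with dox, Map4k3 differed by -0.10 (95% interval -0.29 to 0.10) and Sh3rf1 by -0.25 (-0.62 to 0.12). The block narrowed these intervals to -0.26 to 0.07 for Map4k3 and -0.44 to -0.06 for Sh3rf1. For these 2 chosen genes the intervals are descriptions and carry no test.

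The label suffix separated the libraries of some members. Between the 4 libraries with suffix b and the 8 with suffix a, with group in the model, 3 of 10 genes were called, 1 higher and 2 lower. This share stands against a background of 45.6% of all 13608 genes called (45.8% with the block), so calls were no more frequent among the 10 than among all genes. Mapk9, which encodes JNK2, was higher with suffix b, by 0.65 on the log2 scale (SE 0.05, edgeR adjusted p = 2.94e-07). Its values were 106.04, 109.39 and 159.99 CPM in untreated NLS-N-VEGF cells and 101.82, 108.28 and 161.50 with dox. The N-VEGF population had 82.89, 91.49 and 157.30 CPM without dox and 100.30, 100.78 and 149.13 with dox. In every group the last library stood apart from the other 2, and the suffixes did not overlap. How many of all genes keep the suffixes apart in this way was not counted.

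Both SH3RF scaffolds were lower with suffix b. Sh3rf1 differed by -0.39 (SE 0.07, edgeR adjusted p = 0.000259) and Sh3rf3 by -0.25 (SE 0.08, adjusted p = 0.0137). Sh3rf3 lay at 19.41 to 22.44 CPM with suffix b and at 22.56 to 29.25 CPM with a, without overlap but close together. The share of all genes with such a separation was not counted. The Sh3rf3 call was lost when 1 suffix b library of N-VEGF cells was left out, either the one without dox (-0.22, adjusted p = 0.059) or the one with dox (-0.19, adjusted p = 0.0924). Map4k2 (0.14, adjusted p = 0.17) was called without library 2 of suffix a of N-VEGF cells without dox (0.20, adjusted p = 0.0361).

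The remaining 6 genes were not called. Mapk8 differed by 0.16 (95% interval -0.05 to 0.36, edgeR adjusted p = 0.193), and the intervals of Map4k3 (-0.19 to 0.06), Map4k4 (-0.12 to 0.09), Map4k5 (-0.09 to 0.18), Map2k4 (-0.14 to 0.07) and Map2k7 (-0.09 to 0.16) all included 0.

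**Figure D3:**
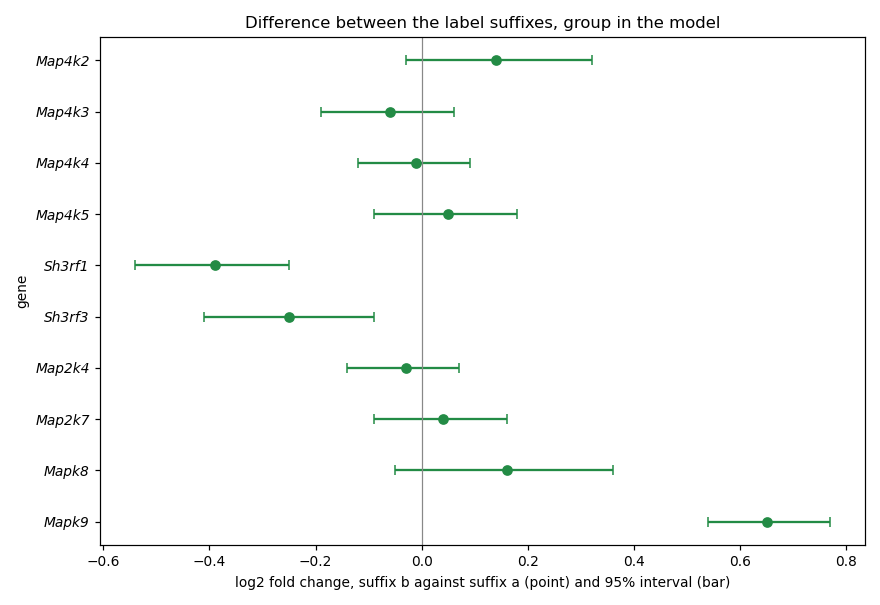
Log2 fold change of suffix b against suffix a (horizontal axis) for each gene (vertical axis), with points for the estimate and bars for the 95% interval from the edgeR model with group as a term. Mapk9 lies at 0.65, Sh3rf1 at -0.39 and Sh3rf3 at -0.25, and the intervals of the other 7 genes include 0.

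The ratio of Mapk9 to Mapk8 counts was 1.95 to 2.72 in the 8 libraries with suffix a and 2.88 to 3.23 in the 4 with suffix b. It follows the Mapk9 values above and was not tested. The ratio of Map2k4 to Map2k7 counts was 1.18 to 1.67 with suffix a and 1.29 to 1.41 with suffix b, so these ranges overlapped.

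**Figure D4:**
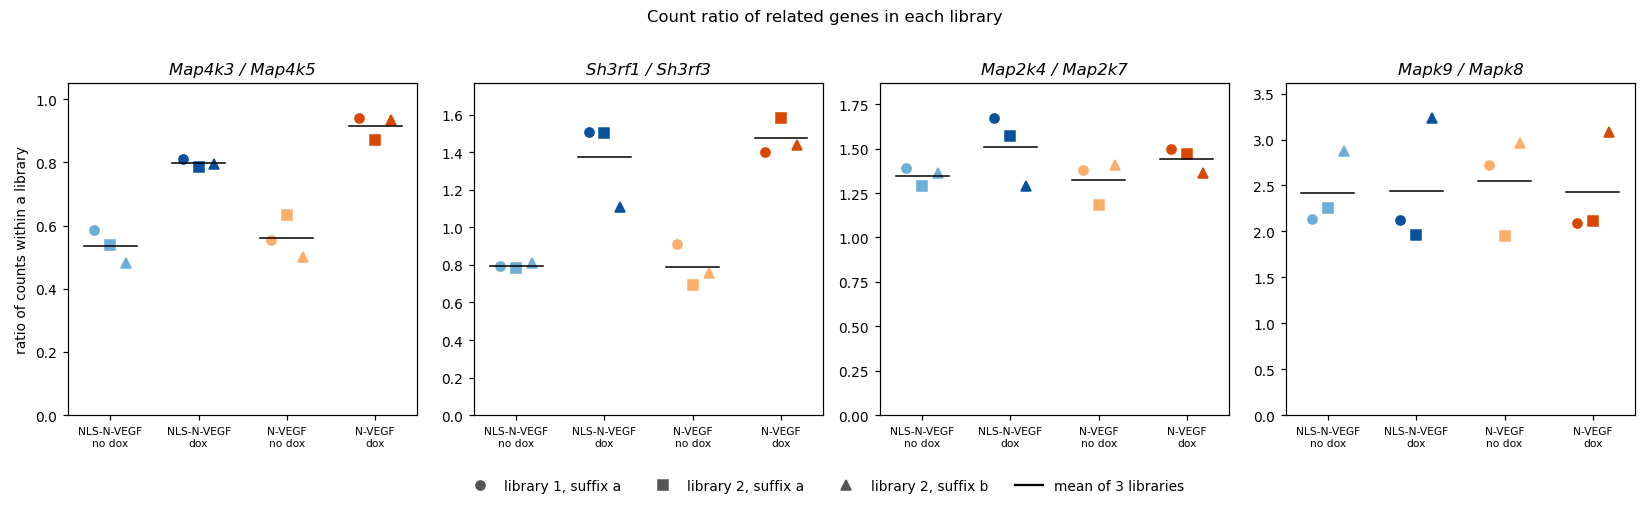
Ratio of the counts of 2 related genes within each library (vertical axis, from 0) in the 4 groups (horizontal axis), with 1 point per library and a line at the mean of 3. The Sh3rf1 to Sh3rf3 ratio is 0.692 to 0.911 without dox and 1.11 to 1.58 with dox, and the Mapk9 to Mapk8 ratio is highest in each group in the library with suffix b.

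Lists of 74 other genes around the cascade were described in the same fits, of which 68 passed the filter. With dox, and between the populations, edgeR called 0 of 68 in each of the 6 comparisons, with or without the block. The median log2 dox effect of the 68 was 0.04 in NLS-N-VEGF cells and 0 in N-VEGF cells, against 0 for all genes. The JNK substrates and AP-1 genes (7 tested) had medians of -0.08 and -0.03, the MAP3K kinases upstream of JNK (15 tested) 0.05 and -0.01, the Hippo kinases and YAP genes (10 tested) 0.07 and 0.03, and the mTORC1 amino acid sensing genes (8 tested) 0.01 and 0.02. The other JNK scaffolds and adaptors (11 tested) had medians of 0.02 and -0.03, the JNK phosphatases (6 tested) 0.03 and 0.17, and the parallel MAPK kinases (8 tested) -0.02 and 0. The 3 tested genes among the other MAP4K family kinases had medians of 0.18 and -0.35, with 0 called, and Map4k1 (mean 1.79 CPM) and Tnik (3.51 CPM) among them had low levels.

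Between the suffixes, 10 of the 68 were called higher and 30 lower with b, or 58.8% against 45.6% of all genes, with a median of -0.14 against 0.01. Over all genes 3015 were called higher and 3192 lower. The called share was 53.3% for the MAP3K genes and 50% for the JNK phosphatases, near that of all genes. Of the AP-1 genes 5 of 7 were called lower and 0 higher, with Atf3, a stress-induced transcription factor, at -1.61 (SE 0.24, edgeR adjusted p = 5.21e-05) and Jund at -0.57 (SE 0.13, adjusted p = 0.00235). Atf3 had a low level, 0.41 to 0.67 CPM with suffix b and 1.03 to 1.89 CPM with a. Of the MAP3K genes 8 of 15 were called lower and 0 higher, with Map3k1, which encodes MEKK1, at -0.65 (SE 0.09, adjusted p = 3.23e-05). Of the 6 JNK phosphatases 2 were called higher and 1 lower, where Dusp4 was higher at 0.73 (SE 0.10, adjusted p = 3.18e-05) and Dusp16 lower at -0.56 (SE 0.06, adjusted p = 4.43e-06). Of the 10 Hippo and YAP genes 3 were called higher and 4 lower. The higher ones were the YAP target genes Ankrd1 at 1.15 (SE 0.10, adjusted p = 3.23e-07) and Ctgf at 1.08 (SE 0.11, adjusted p = 1.75e-06), with the kinase gene Lats2 at 0.38 (SE 0.10, adjusted p = 0.00515). Cyr61, also a YAP target gene of this list (mean 133.36 CPM), was not called. The lower ones were Stk4 (-0.48), Stk3 (-0.33), Wwtr1 (-0.30) and Lats1 (-0.25). The 8 parallel MAPK kinases had 3 higher and 1 lower, and the 8 mTORC1 genes 1 higher and 4 lower. The 11 other scaffolds and adaptors had 1 higher and 5 lower, and the 3 other MAP4K family kinases 0 higher and 2 lower.

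The genes most like Map4k3 and Sh3rf1 over the 12 libraries were partly the same. After the mean of each replicate label was subtracted, the Pearson correlation of log2(CPM + 2) with Map4k3 over the 12 libraries was highest for Spon2 (0.963), Etl4 (0.962), Sh3rf1 (0.957), Adgrg1 (0.955) and Ankrd28 (0.952). For Sh3rf1 it was highest for Etl4 (0.964), Map4k3 (0.957), Adgrg1 (0.950), Ephx1 (0.944) and Src (0.936). The libraries share their dox treatment, so these values describe a common pattern over the groups and carry no p. Among the other members, the correlation with Map4k3 ran from -0.637 for Map2k7 to 0.477 for Map4k5.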

How the data were processed

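RNA-seq was available for 12 libraries in 4 groups of 3, grouped by the labels. The authors trimmed reads with Trim Galore, aligned them to GRCm38 with TopHat2 2.1.0 and counted reads per gene with HTSeq 0.6.1, and the deposited values are raw counts. The strand setting is not given in the sources used here. Total counts of 13549331 to 18982127 set a floor of 0.158 to 0.221 counts per 1000000 counts (CPM), taken as 3 counts, which covers counting error only, since reads carried no molecular identifiers.

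Counts were tested with edgeR 4.0.16 in R 4.3.3 (TMM scaling, filterByExpr by group, quasi-likelihood F test, two-sided, Benjamini-Hochberg over 13608 genes, called at an adjusted p under 0.05), with 1 mean per group over all 12 libraries, or group plus suffix for the suffix. The 95% intervals use the model's t quantile. DESeq2 1.42.0, RLE scaling, other filters, single suffixes and left-out libraries were alternatives. Scripts were tested on simulated data.

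The label's number and suffix were used as a block in a paired alternative. Deviations from group means correlated at 0.40 to 0.83 in all 18 same-label pairs over 12058 genes, at 0.14 to 0.68 in 12 pairs that shared the suffix but not the number, and at -0.76 to -0.35 in 24 pairs of different suffix. The labels were taken to pair the libraries. No libraries of a group agreed within sampling noise (chi-square per gene 1.81 to 81.4).

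Named genes were the 10 members, up to 4 genes per direction with the largest called change in the pathway lists, and the 5 genes most correlated with Map4k3 and with Sh3rf1 among genes whose mean level reached 1 CPM. Further genes of the lists were named where their level or direction limits what a list shows. The members and lists were chosen with earlier results of these data known. Gene positions are those deposited with the counts, and strands and exon lengths are from GENCODE M21 on GRCm38. The deposited position of Map4k3 differs from that in GENCODE M21. Similar transcripts were searched with BLAST at 97% identity over at least 80 bases.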

Additional observations from a re-analysis of the deposited data

How the results depend on the processing

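The calls of the members changed little with the processing. Of 1260 recomputed log2 values, 1166 counted as unchanged. For tested values this means the same direction and the same side of the threshold. For the described values of Map4k3 and Sh3rf1, which have no call, it means a move within the SD between libraries of a group. Between the suffixes 1 value gained and 2 lost a call (values above), and 91 values of 30 results changed sign. Those 91 were called neither before nor after, lay between -0.15 and 0.20, and their cause was not tested. The replicate block changed no member's call (0 in the 6 group comparisons, 3 of 10 between the suffixes). Over 18 alternatives the log2 dox effect of Map4k3 lay between 0.66 and 0.72 in NLS-N-VEGF cells and between 0.71 and 0.86 in N-VEGF cells, and that of Sh3rf1 between 0.72 and 0.95 and between 0.91 and 1.20. The size of change that could be seen may depend on the groups of 3, on depth and on the suffix difference. The main model of the group comparisons left that difference out, and the part of each was not tested.

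Counts over all genes moved more. Dox against no dox had 3 calls in NLS-N-VEGF cells, against 17 with the replicate block, 9 by DESeq2, 53 with no filter beyond 1 count, 109 in the libraries with suffix a alone, and 0 to 3 with 1 library left out. In N-VEGF cells 5 calls became 15 with the block, 36 without the filter, 16 with suffix a alone, and 1 to 7 with 1 library left out. The mean dox effect had 8 calls, against 77 with the block, 16 by DESeq2, 77 without the filter, 135 with suffix a alone, and 5 to 9 with 1 library left out. From 0 calls, the difference of the dox effects reached 1 without the filter and 4 with suffix a alone, the populations with dox 2 with the block, 9 and 11, and the populations without dox 10 and 5.

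Some sign changes came from other settings. With no filter beyond 1 count, dox against no dox in NLS-N-VEGF cells was 0.01 for Mapk8 and 0 for Mapk9, and the populations without dox differed by -0.01 for Map4k3 and -0.01 for Sh3rf1. With suffix a alone, dox against no dox in NLS-N-VEGF cells was -0.01 for Map4k2, -0.02 for Sh3rf3 and 0.06 for Mapk8, the difference of the dox effects was -0.03 for Map4k5, and the populations without dox differed by -0.02 for Map4k4 and -0.09 for Sh3rf1. DESeq2 gave 0 for the mean dox effect of Map4k4 and -0.01 for Map4k3 and -0.01 for Sh3rf1 between the populations without dox, and RLE scaling gave 0 for Map4k3 there. With at least 10 counts in every library, Map4k4 was at 0 in the mean dox effect and 0.01 between the suffixes. In the libraries numbered 2 alone, Map4k5 was at -0.01 and Map2k7 at -0.03 between the suffixes.

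The other sign changes came from leaving out 1 library, given as the lowest and highest log2 value over the 12 libraries left out. In the dox effect of NLS-N-VEGF cells the ranges were Mapk8 -0.06 to 0.05, Mapk9 -0.25 to 0.2, Map4k2 -0.02 to 0.09 and Sh3rf3 -0.04 to 0.04. In the dox effect of N-VEGF cells the ranges were Map4k2 -0.04 to 0.23, Mapk8 -0.06 to 0.3, Mapk9 -0.14 to 0.4, Map2k4 0 to 0.04 and Map4k4 -0.05 to 0.01. In the mean dox effect the ranges were Map4k4 -0.02 to 0.02, Mapk9 -0.09 to 0.19, Map4k2 0 to 0.13 and Mapk8 -0.03 to 0.14. In the difference of the dox effects the ranges were Map4k5 -0.05 to 0.1, Map2k7 -0.09 to 0.04, Mapk9 -0.41 to 0.13, Map2k4 -0.01 to 0.05, Map4k2 -0.19 to 0.08 and Mapk8 -0.31 to 0.05. Between the populations with dox the ranges were Map2k4 -0.05 to 0.02 and Mapk9 -0.15 to 0.3. Between the populations without dox the ranges were Map4k3 -0.08 to 0.08, Sh3rf1 -0.13 to 0.11, Map4k4 -0.01 to 0.06, Sh3rf3 -0.14 to 0.12, Mapk9 -0.04 to 0.51 and Map4k5 0 to 0.16. Between the suffixes the ranges were Map4k4 -0.07 to 0.01, Map4k5 -0.03 to 0.11 and Map2k7 -0.02 to 0.08.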
